A study of Mus musculus with 24 samples.

Results

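The acute phase and itaconate genes are 6 mouse genes of the innate inflammatory response: Lcn2, Serpina3n, Acod1, Saa3, Ptx3 and C3. They were selected on values of these same arrays, because Lcn2, Serpina3n and Acod1 had been seen to differ with diet or with shGAL. Each was looked for among the probe sets that name a single gene, which together name 17097 genes. Of the 6 members, 5 had such a probe set, 6 probe sets in all, and all 5 passed the filter on dim genes that 11844 of the 17097 genes passed. C3 was the exception and was not analysed here.

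Messenger RNA had been measured on mouse arrays in the neural fraction cells of the stroma of SCC25 tumours. SCC25 is a human oral squamous carcinoma line, grown here at its site of origin in NSG mice, a strain that lacks mature lymphocytes and natural killer cells but keeps macrophages and neutrophils. The tumour cells carried 1 of 4 hairpins, and the mice ate a control diet or a PA-rich diet, that is, one rich in palmitic acid. The 8 groups were PLKO (a non-targeting hairpin), shEGR2_40.9 and shEGR2_38.9 (both against EGR2) and shGAL (against GAL), each on both diets, with 3 arrays per group and 24 in all. All groups therefore shared 1 tumour line, the host strain and a hairpin in the tumour cells. The hairpins acted in the human cells while the arrays were made for mouse RNA, so no member was meant to report on the silencing itself. Whether RNA of the tumour cells also bound to these arrays was not tested. EGR2 is a transcription factor known from Schwann cell myelination, and GAL encodes the neuropeptide galanin. The design asks whether dietary palmitic acid leaves a mark on these stromal cells and whether EGR2 or galanin in the tumour cells bears on it. The series calls the 3 arrays of a group technical replicates, so every p-value below measures only the spread between arrays. Age and sex of the mice are not given in the sources used here.

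The values are log2 levels made by robust multi-array averaging, and a difference of 1 on this scale is a doubling. Array medians ran from 6.71 to 6.81, and 3 arrays in a group limit what can be resolved. A gene was dim when its mean lay below 6.27, a level under which 19 of 23 nonspecific control probe sets also lay. The third control-diet replicate of shEGR2_38.9 stood apart: its 3′ Gapdh control exceeded the 5′ one by 0.76, against -0.12 to 0.08 in the other 23 arrays. Leaving it out took the genes called for the diet from 140 to 269 with PLKO and from 230 to 528 with shGAL, contrasts that hold none of its groups, because the model shares one spread over all arrays. The members' differences and the counts over gene lists and cell markers that rest on it are given with and without it. Each scan batch in the labels held 4 arrays, both diets of 2 hairpins, so every difference between diets with the same replicate number is a difference within a batch. Of the Schwann cell markers with a probe set, 6 of 9 lay above the dim level, while S100b, Foxd3 and Gfap, defining markers of glia, lay below it. Of the neuronal markers 4 of 10 lay above it, and all 10 keratinocyte markers did.

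Acute phase genes are switched on in liver and in injured or infected tissue by interleukin-1, interleukin-6 and tumour necrosis factor, acting through the factors NF-kB, STAT3 and C/EBP. Lcn2 encodes lipocalin 2, which binds bacterial siderophores and so withholds iron. Serpina3n encodes a secreted inhibitor of serine proteases, among them neutrophil and T cell proteases. Acod1 encodes the mitochondrial enzyme that turns cis-aconitate, an intermediate of the citric acid cycle, into itaconate, which inhibits succinate dehydrogenase and restrains inflammation in activated myeloid cells. Saa3 is a serum amyloid A made outside the liver, Ptx3 is the long pentraxin that tags microbes and binds C1q, and C3 is the central protein of the complement cascade. In the nervous system Lcn2 and Serpina3n are well-known genes of reactive glia.

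The promoters of the 3 genes that gave the set its reason, and of Saa3, are printed because these genes varied together or held the most motif matches. They are the 250 bases before the start site in the RefSeq promoter table of build GRCm38.p6, written 5′ to 3′ on the gene's strand, with motif matches in capitals. The Saa3 window lies inside the gene span given below, and the Serpina3n window partly overlaps its gene span. For these genes the start site used is therefore not the end of that span.
Lcn2, - strand, chr2:32387740-32387989: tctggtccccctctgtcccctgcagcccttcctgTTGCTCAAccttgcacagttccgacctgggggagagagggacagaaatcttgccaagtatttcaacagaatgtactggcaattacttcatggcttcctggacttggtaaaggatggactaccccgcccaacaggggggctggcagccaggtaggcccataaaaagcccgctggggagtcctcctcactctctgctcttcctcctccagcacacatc
Serpina3n, + strand, chr12:104406458-104406707: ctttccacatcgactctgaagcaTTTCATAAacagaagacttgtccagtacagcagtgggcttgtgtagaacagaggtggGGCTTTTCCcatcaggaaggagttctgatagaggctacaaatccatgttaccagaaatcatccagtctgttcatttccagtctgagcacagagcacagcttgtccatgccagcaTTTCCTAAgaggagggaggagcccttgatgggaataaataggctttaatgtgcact
Acod1, + strand, chr14:103046762-103047011: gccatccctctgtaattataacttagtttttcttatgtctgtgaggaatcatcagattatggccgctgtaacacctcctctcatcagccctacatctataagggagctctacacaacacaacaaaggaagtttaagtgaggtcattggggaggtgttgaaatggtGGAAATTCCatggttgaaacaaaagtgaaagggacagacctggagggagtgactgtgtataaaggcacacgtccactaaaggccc
Saa3, - strand, chr7:46715677-46715926: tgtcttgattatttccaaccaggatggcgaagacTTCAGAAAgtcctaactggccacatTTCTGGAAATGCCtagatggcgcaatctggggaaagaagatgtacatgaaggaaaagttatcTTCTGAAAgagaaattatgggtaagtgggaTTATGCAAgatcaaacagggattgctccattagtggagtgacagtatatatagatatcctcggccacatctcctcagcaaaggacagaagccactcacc

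Motifs were searched on both strands as GGNNTTTCC for NF-kB, TTNNGNAA for C/EBP and TTCNNNGAA for STAT. Of 32851 promoter windows of this length, 4.93% held the NF-kB letters, 36.8% the C/EBP letters and 7.02% the STAT letters. The NF-kB letters occurred once each before Serpina3n (170 bases before the start), Acod1 (85 bases) and Saa3 (187 bases). The C/EBP letters occurred before Lcn2 (216 bases), at 2 places before Serpina3n (227 and 56 bases) and at 4 places before Saa3 (216, 191, 129 and 99 bases). In Saa3 the match at 191 bases overlaps the NF-kB match at 187 bases. Ptx3 held 1 C/EBP match (57 bases), C3 held 3 (70, 58 and 45 bases), and no window held the STAT letters. A match is a run of letters and does not show that a factor binds there.

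Lcn2 lies on chromosome 2 (GRCm38.p6, chr2:32384637-32387739). With PLKO its log2 levels in replicates 1, 2 and 3 were 9.01, 8.90 and 8.72 on the control diet and 7.94, 7.51 and 7.44 under the PA-rich diet. With shEGR2_40.9 they were 8.91, 8.89 and 8.53, then 8.29, 7.98 and 8.10 on the PA-rich diet. The groups did not overlap with either hairpin, and every PA-rich array lay below every control array. With shEGR2_38.9 the levels were 9.10, 8.83 and 8.34 on the control diet and 7.98, 8.35 and 8.05 under the PA-rich diet, where the single overlap came from control replicate 3, the array that stood apart. With shGAL the order was the other way round: 8.61, 8.53 and 8.58 on the control diet, and 9.37, 8.91 and 9.20 under the PA-rich diet, with no overlap. The PA-rich minus control difference in log2 level was -1.25 with PLKO, -0.65 with shEGR2_40.9, -0.63 with shEGR2_38.9 and 0.59 with shGAL (SE 0.16 each). These are 2.38-fold, 1.57-fold and 1.55-fold lower values with the first 3 hairpins and a 1.5-fold higher value with shGAL. The diet was part of what chose the gene, so these differences are descriptions without a test.

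Serpina3n lies on chromosome 12 (chr12:104406646-104414334) in a cluster of closely related serpins, so its probe set may also bind RNA of its paralogs. With PLKO its log2 levels were 10.87, 10.76 and 10.86 on the control diet and 9.80, 9.61 and 9.91 under the PA-rich diet. This was the widest gap between the diets for this gene, with the control group tight and well above the PA-rich group. With shEGR2_40.9 the levels were 10.43, 10.34 and 10.26 on the control diet and 9.79, 9.90 and 9.86 under the PA-rich diet. With shEGR2_38.9 they were 10.49, 10.57 and 10.36, then 10.20, 10.42 and 10.35 on the PA-rich diet, and with that hairpin the diets overlapped. With shGAL they were 10.33, 10.15 and 10.25 on the control diet and 10.53, 10.22 and 10.42 under the PA-rich diet, again overlapping. The difference in log2 level between the diets was -1.06 with PLKO, a 2.08-fold lower value, -0.49 with shEGR2_40.9, -0.15 with shEGR2_38.9 and 0.15 with shGAL (SE 0.09 each). The differences with shEGR2_38.9 and shGAL were thus under 2 standard errors and of opposite sign.

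Acod1 lies on chromosome 14 (chr14:103047012-103056573). With PLKO its log2 levels were 8.11, 8.17 and 7.29 on the control diet and 6.54, 6.51 and 6.63 under the PA-rich diet, where all 3 arrays came near the dim level. With shEGR2_40.9 the gene was low on both diets: 7.43, 6.56 and 6.81 on the control diet, and 6.67, 6.14 and 6.38 under the PA-rich diet, with an overlap. With shEGR2_38.9 it was high on the control diet at 9.44, 8.94 and 8.34, and 7.51, 8.02 and 7.79 on the PA-rich diet, with no overlap. With shGAL it was 7.90, 8.05 and 8.65 on the control diet and 9.04, 8.50 and 9.11 under the PA-rich diet, so that the PA-rich group was mostly higher, with an overlap. The diet difference in log2 level was -1.30 with PLKO, -0.53 with shEGR2_40.9, -1.13 with shEGR2_38.9 and 0.68 with shGAL (SE 0.27 each). The value with shEGR2_40.9 became -0.29 without control-diet replicate 1. That is a 2.46-fold lower value with PLKO and a 1.6-fold higher value with shGAL.

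Saa3 lies on chromosome 7 (chr7:46711998-46719615) beside its close relatives, whose RNA its probe set may also bind. With PLKO its log2 levels were 7.32, 6.87 and 7.17 on the control diet and 6.63, 6.12 and 6.30 under the PA-rich diet, a small gap without overlap. With shEGR2_40.9 on the control diet the 3 arrays lay far apart at 8.99, 6.95 and 10.23, against 6.14, 7.77 and 6.15 on the PA-rich diet. In replicate 2 of that hairpin the order of the diets was turned. With shEGR2_38.9 the levels were 8.98, 9.73 and 8.00 on the control diet and 7.13, 6.17 and 6.10 under the PA-rich diet, without overlap. With shGAL they were 6.00, 6.20 and 7.65 on the control diet and 6.34, 6.30 and 6.33 under the PA-rich diet, all but 1 near the dim level. The diet difference in log2 level was -0.77 with PLKO, -2.04 with shEGR2_40.9, -2.44 with shEGR2_38.9 and -0.29 with shGAL (SE 0.58 each). Leaving out 1 array moved the value with shEGR2_40.9 between -2.92, without control-diet replicate 2, and -1.28, without control-diet replicate 3. With shGAL it ran from -0.60 to 0.22, and it turned above 0 without control-diet replicate 3.

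Ptx3 lies on chromosome 3 (chr3:66219887-66225806) and is the only member with 2 probe sets. On the probe set used, the log2 levels with PLKO were 7.29, 9.20 and 8.17 on the control diet and 7.15, 7.32 and 5.89 under the PA-rich diet, with an overlap at replicate 1. With shEGR2_40.9 they were 9.69, 9.30 and 9.83 on the control diet and 5.72, 5.97 and 5.97 under the PA-rich diet, where all 3 arrays lay below the dim level. Taken against the dim level the gap was at least 10.1-fold, and as measured 13.2-fold. With shEGR2_38.9 the levels were 9.35, 9.61 and 9.17 on the control diet and 7.53, 8.37 and 7.02 under the PA-rich diet, again without overlap. With shGAL they were 7.21, 6.19 and 8.22, then 7.52, 6.67 and 6.76 on the PA-rich diet, and overlapped. The diet difference in log2 level was -1.43 with PLKO, -3.72 with shEGR2_40.9, -1.74 with shEGR2_38.9 and -0.22 with shGAL (SE 0.45 each). The first became -0.94 without PLKO control-diet replicate 2. The last ran from -0.73 to 0.28 when 1 array was left out, and turned above 0 without shGAL control-diet replicate 3. The other Ptx3 probe set ran from 5.84 to 6.45, below the dim level in 16 of 24 arrays, and did not show this range. With the mean of both probe sets the diet differences were -0.75 with PLKO, -1.81 with shEGR2_40.9 and -0.78 with shEGR2_38.9.

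**Figure D1:**
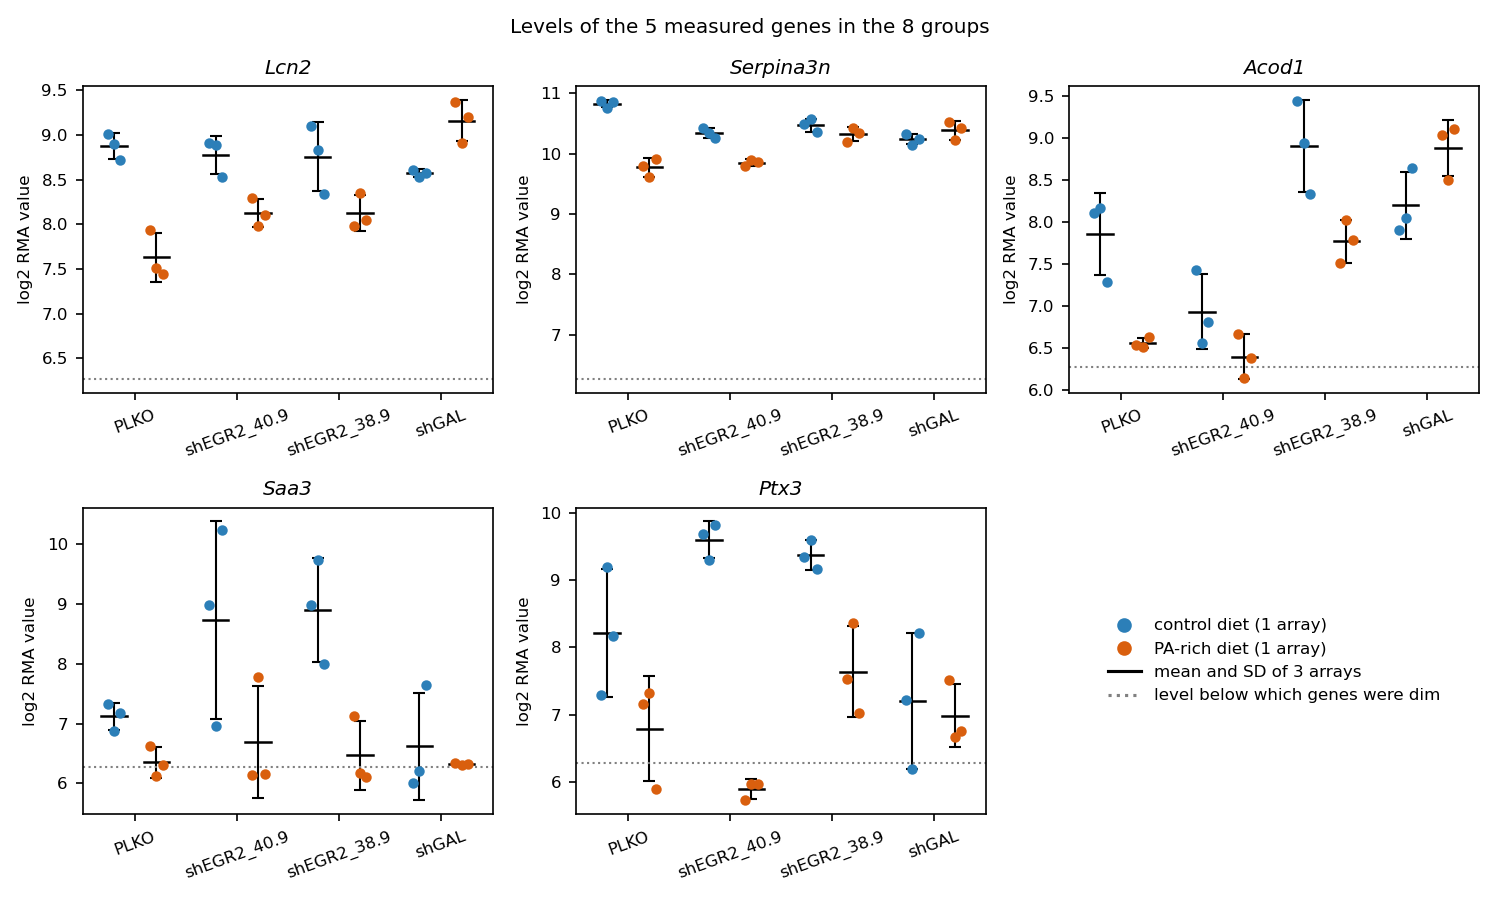
Log2 levels of the 5 measured genes (y axis, a panel each) in the 4 hairpins (x axis) and 2 diets, with 1 point per array, the mean and SD of 3 arrays, and the dim level of 6.27 as a dotted line. Lcn2 is lowest with PLKO on the PA-rich diet at 7.63 and highest with shGAL on the PA-rich diet at 9.16, and Saa3 and Ptx3 are highest with the EGR2 hairpins and control food.

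Seen as pairs within a scan batch, Lcn2, Serpina3n and Acod1 shared an order of signs. In each of these 3 genes, 3 of 3 pairs were below 0 with PLKO, with shEGR2_40.9 and with shEGR2_38.9, and 3 of 3 were above 0 with shGAL. For Lcn2 the pairs with PLKO ran from -1.40 to -1.07, and those with shGAL from 0.38 to 0.77. For Serpina3n they ran from -1.15 to -0.95 with PLKO and only from 0.07 to 0.19 with shGAL. For Acod1 they ran from -1.66 to -0.66 with PLKO and from 0.44 to 1.14 with shGAL. Saa3 and Ptx3 did not share the turn with shGAL, where 2 of 3 pairs were above 0 and 1 was far below it, at -1.32 for Saa3 and -1.46 for Ptx3. Arrays of the diets did not overlap, with the PA-rich diet lower, for 4 of 5 members with PLKO (10.3% of all kept genes), 3 with shEGR2_40.9 (13.8%) and 3 with shEGR2_38.9 (11.0%). With shGAL the PA-rich arrays lay above the control arrays for 1 member, Lcn2 (11.0% of kept genes). Because these contrasts chose the members, nothing is read from those counts. Without the array that stood apart, the diet difference with shEGR2_38.9 was -0.84 for Lcn2, -0.21 for Serpina3n, -1.42 for Acod1, -2.89 for Saa3 and -1.84 for Ptx3.

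**Figure D2:**
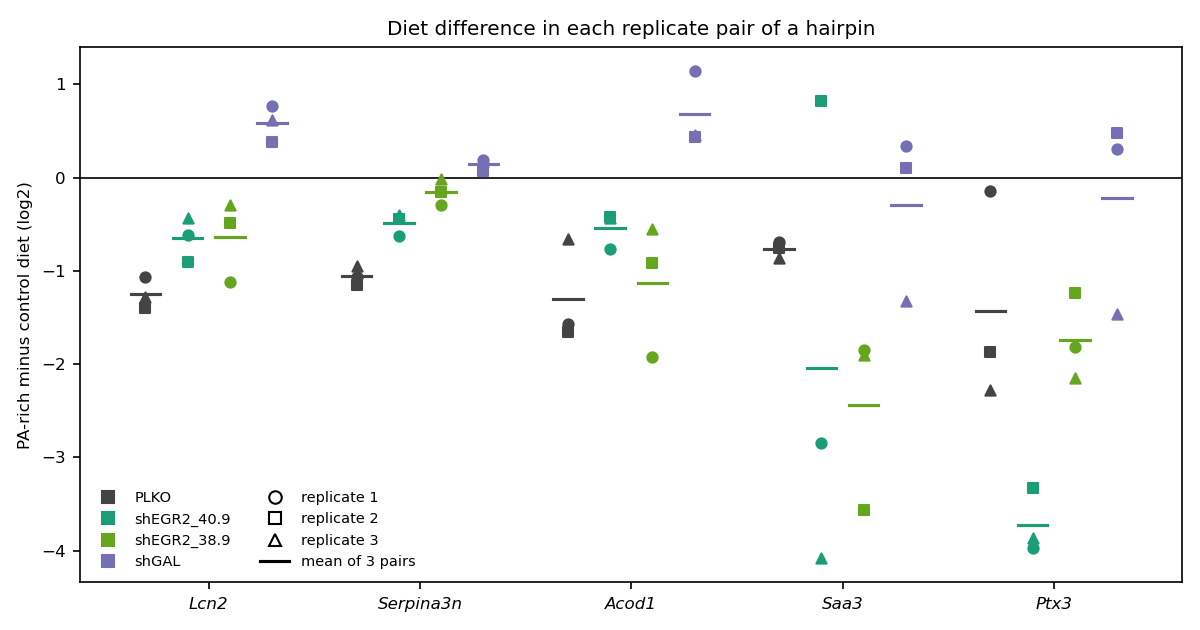
PA-rich minus control diet difference in log2 level (y axis) for each gene (x axis), with 1 symbol per replicate pair from the same scan batch, colours for the 4 hairpins and a line at the mean of 3 pairs. For Lcn2, Serpina3n and Acod1 all 3 shGAL pairs lie above 0 and all pairs of the other hairpins lie below it.

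The 8 group means of a member spanned 1.06 for Serpina3n, 1.53 for Lcn2, 2.51 for Acod1, 2.58 for Saa3 and 3.72 for Ptx3 in log2 level. These groups are those on which the members were chosen, so the spans only describe them. Most neighbouring groups in this order had overlapping arrays. Lcn2 was highest with shGAL on the PA-rich diet (9.16 ± 0.24, SD, n = 3) and lowest with PLKO on the PA-rich diet (7.63 ± 0.27, SD, n = 3). Of the 7 neighbouring steps in its order, 2 had no overlap: from shGAL control (8.57) to shEGR2_38.9 PA-rich (8.13), and from shEGR2_40.9 PA-rich (8.12) to PLKO PA-rich. Serpina3n was highest with PLKO on the control diet (10.83 ± 0.06, SD, n = 3) and lowest with PLKO on the PA-rich diet (9.77 ± 0.15, SD, n = 3), so the extremes of its order differed in diet alone. It too had 2 steps without overlap, below its highest group and between shGAL control (10.24) and shEGR2_40.9 PA-rich (9.85). Acod1 was highest with shEGR2_38.9 on the control diet (8.91 ± 0.55, SD, n = 3), level with shGAL on the PA-rich diet (8.88 ± 0.33, SD, n = 3), and lowest with shEGR2_40.9 on the PA-rich diet (6.40 ± 0.26, SD, n = 3). Its only step without overlap lay between shEGR2_38.9 PA-rich (7.78) and shEGR2_40.9 control (6.93). In Saa3 and Ptx3 none of the 7 neighbouring steps was free of overlap.

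Against PLKO on the PA-rich diet, shGAL had higher log2 levels of Acod1 by 2.32 (SE 0.27, 5.0-fold), of Lcn2 by 1.53 (SE 0.16, 2.89-fold) and of Serpina3n by 0.62 (SE 0.09, 1.54-fold). In all 3 genes every shGAL array lay above every PLKO array, which held for 17.0% of kept genes in that direction. Saa3 differed by -0.03 (SE 0.58) and Ptx3 by 0.20 (SE 0.45), and both changed sign when single arrays were left out (-0.15 to 0.11 and -0.25 to 0.46). On the control diet Lcn2 was lower (-0.31, SE 0.16) and so was Serpina3n (-0.58, SE 0.09), both without overlap, as in 17.2% of kept genes. Acod1 differed by 0.34 (SE 0.27), Saa3 by -0.50 (SE 0.58) and Ptx3 by -1.01 (SE 0.45), all overlapping. With 1 array left out these 3 ran from 0.06 to 0.50, from -1.02 to -0.19 and from -1.52 to -0.50. In scan batch 2, the single batch that shGAL and PLKO shared, the PA-rich differences were 1.76 for Lcn2, 0.51 for Serpina3n and 2.47 for Acod1. The control-diet differences there were -0.14, -0.61 and 1.35. The shGAL contrasts also chose the members and carry no test, and they share the PLKO arrays with the diet contrast of PLKO.

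The summed level of the neutrophil markers was higher with shGAL, through S100a8 and S100a9. Of 10 with a probe set 4 were above the dim level and tested, and 1 of these 4 was called higher than with PLKO on each diet. The summed log2 level of all 10 was 9.83 to 10.18 with shGAL on the control diet and 10.04 to 10.24 on the PA-rich diet, against 9.44 to 9.70 in the other 6 groups. S100a8 and S100a9 encode the calprotectin subunits that neutrophils carry in bulk. S100a8 was 6.87 ± 0.51 with shGAL on the control diet and 7.76 ± 0.39 under the PA-rich diet (SD, n = 3), while its highest mean in the other groups was 5.96. S100a9 was 7.88 ± 0.42 and 8.33 ± 0.24 in the same groups (SD, n = 3), against at most 7.14 in the others. The other 3 markers above the dim level showed no such rise: with shGAL on the control and PA-rich diets Camp was 7.14 and 7.01, against 7.04 to 7.15 in the other groups, Ltf 7.35 and 7.27 against 7.11 to 7.28, and Mpo 6.66 and 6.56 against 6.39 to 6.61. The defining markers Csf3r, Cxcr2, Elane and Mmp8 lay below the dim level, as did Ngp and, in its mean over all arrays, S100a8. All 10 keratinocyte markers lay above it, and which cells gave the S100a8 and S100a9 RNA was not tested. Lcn2 and Acod1 are also made by neutrophils and macrophages, and the part of these cells in the members' values was not tested. In bulk RNA, more cells of a type and more RNA per cell cannot be told apart.

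The EGR2 hairpins gave contrasts that the choice of the members did not name, though they share the PLKO or EGR2 arrays with those that it did. Serpina3n, seen to differ with diet or shGAL, was highest with PLKO on the control diet (10.83) and lowest with PLKO on the PA-rich diet (9.77). Its p-values against PLKO on either diet are therefore not independent of the choice. The same holds on the PA-rich diet for Lcn2 and Acod1, the other genes seen to differ. With PLKO on that diet Lcn2 had its lowest group mean (7.63) and Acod1 a low one (6.56). The EGR2 contrasts were tested with limma over 11844 genes, with Benjamini-Hochberg adjustment and a threshold of 0.05. On the control diet, the mean of both EGR2 hairpins against PLKO called 2 of 5 members higher, Saa3 and Ptx3, and 1 lower, Serpina3n. Of all kept genes 10.8% were called higher and 14.5% lower. Saa3 rose by 1.69 in log2 level (SE 0.51, 3.23-fold, adjusted p = 0.017), with 1.60 in shEGR2_40.9 and 1.78 in shEGR2_38.9. Its scatter was wide, and the call ended in a fit of only those arrays (adjusted p = 0.0672) and without PLKO control-diet replicate 2 (adjusted p = 0.0722) or 3 (adjusted p = 0.0509). Ptx3 rose by 1.27 (SE 0.39, 2.42-fold, adjusted p = 0.0205), with 1.39 in shEGR2_40.9 and 1.16 in shEGR2_38.9. That call ended without PLKO control-diet replicate 1, where the difference was 0.81 (adjusted p = 0.183), or replicate 3 (adjusted p = 0.0677), and with the mean of both probe sets the difference was 0.56 (adjusted p = 0.0394). Serpina3n fell by 0.42 (SE 0.08, 1.34-fold, adjusted p = 0.00032), with all 6 EGR2 arrays below all 3 PLKO arrays.

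Serpina3n stayed past the threshold under every alternative run, with adjusted p from 0.000195 to 0.00657. Within the shared scan batches its control-diet difference from PLKO was -0.44 for shEGR2_40.9 and -0.18 for shEGR2_38.9. The same values were 1.67 and 2.86 for Saa3, and 2.41 and 0.41 for Ptx3. Lcn2 differed by -0.11 (SE 0.14, adjusted p = 0.595). The mean hid opposite values in Acod1, at 0.06 (SE 0.23, adjusted p = 0.866): shEGR2_40.9 lay at -0.92 and shEGR2_38.9 at 1.05. Without the array that stood apart the differences were 1.92 for Saa3 (adjusted p = 0.00884), 1.32 for Ptx3 (adjusted p = 0.0246) and -0.39 for Serpina3n (adjusted p = 0.00059).

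On the PA-rich diet the EGR2 mean differed little from PLKO over all genes, with 0.794% called higher and 0.321% lower. Among the members 1 of 5 was called, Serpina3n, higher by 0.32 (SE 0.08, 1.25-fold, adjusted p = 0.0432). The hairpins were unlike here, with 0.08 in shEGR2_40.9 and 0.55 in shEGR2_38.9. The call ended with scan batch as a block (0.37, adjusted p = 0.0645), with no filter on dim genes (adjusted p = 0.0529) and without any single one of 7 arrays, where adjusted p ran from 0.0537 to 0.297. Those 7 were PLKO replicates 1 and 2, shEGR2_40.9 replicates 1, 2 and 3, and shEGR2_38.9 replicates 2 and 3. Within the shared batches the difference was -0.01 for shEGR2_40.9 and 0.81 for shEGR2_38.9. Lcn2 was higher by 0.50 (SE 0.14, adjusted p = 0.103), at 0.49 in shEGR2_40.9 and 0.50 in shEGR2_38.9, and all 6 EGR2 arrays lay above the 3 PLKO arrays. It passed with scan batch as a block (0.61, adjusted p = 0.0426), in a fit of only those arrays (adjusted p = 0.0413) and without the array that stood apart (adjusted p = 0.0363). Within the shared batches Lcn2 was higher by 0.35 with shEGR2_40.9 and by 0.84 with shEGR2_38.9. Acod1 gave 0.53 (SE 0.23, adjusted p = 0.361) and passed in a fit of only those arrays (adjusted p = 0.0341). The mean again hid opposite values in Acod1, with -0.16 in shEGR2_40.9 and 1.22 in shEGR2_38.9. Saa3 gave 0.22 (SE 0.51, adjusted p = 0.923) and Ptx3 -0.02 (SE 0.39, adjusted p = 0.992). Ptx3 too was unlike between the hairpins, at -0.9 in shEGR2_40.9, whose arrays lay below the dim level, and 0.85 in shEGR2_38.9.

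**Figure D3:**
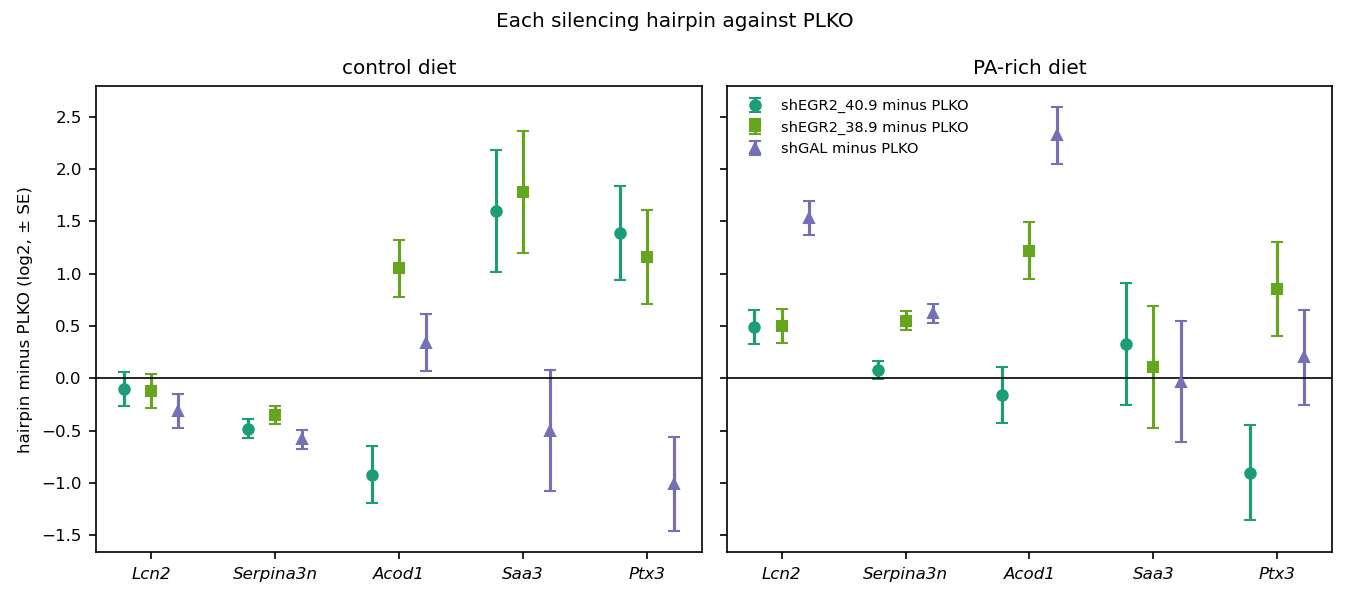
Hairpin minus PLKO difference in log2 level with its SE from the model (y axis) for the 5 genes (x axis), on the control diet (left) and the PA-rich diet (right). Acod1 lies at -0.92 with shEGR2_40.9 and 1.05 with shEGR2_38.9 on the control diet, and at 2.32 with shGAL on the PA-rich diet.

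Acod1 separated the EGR2 hairpins, which aim at the same gene, on both diets. It was lower with shEGR2_40.9 than with shEGR2_38.9 3.93-fold with control food (a log2 difference of -1.97, SE 0.27, adjusted p = 2.62e-05) and 2.6-fold with PA-rich food (-1.38, SE 0.27, adjusted p = 0.00253). The arrays did not overlap on either diet, and both calls held under every alternative run, with adjusted p up to 0.0059 and 0.0235. In scan batch 3, which these hairpins shared, the differences were -1.53 and -1.41. Without the array that stood apart the control-diet difference was -2.26 (adjusted p = 1.46e-05). Of all kept genes, shEGR2_40.9 was higher than shEGR2_38.9 in 7.57% and lower in 4.32% on the control diet, where 1 of 5 members was lower. After renewed quantile normalization 49.7% of the control-diet calls were higher, against 63.6%. The other 4 members were not called on the control diet: Lcn2 gave 0.02 (SE 0.16, adjusted p = 0.961), Serpina3n -0.13 (SE 0.09, adjusted p = 0.365), Saa3 -0.18 (SE 0.58, adjusted p = 0.886) and Ptx3 0.23 (SE 0.45, adjusted p = 0.795).

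On the PA-rich diet, where 2.21% of kept genes were called higher and 2.79% lower, 3 of 5 members were lower with shEGR2_40.9. Besides Acod1 these were Serpina3n, 1.39-fold (a log2 difference of -0.47, SE 0.09, adjusted p = 0.0019), and Ptx3 (-1.75, SE 0.45, adjusted p = 0.0239). All 3 Ptx3 arrays of shEGR2_40.9 lay below the dim level there, and against that level the difference was at least 2.58-fold. Serpina3n held under every alternative run, with adjusted p up to 0.0199, and was -0.49 in scan batch 3. Ptx3 did not: with scan batch as a block it was -1.12 (adjusted p = 0.183), with the mean of both probe sets -0.82 (adjusted p = 0.0291), and it missed the threshold without any of the shEGR2_40.9 arrays or without shEGR2_38.9 replicate 1 or 2 (adjusted p from 0.0579 to 0.168). Lcn2 (0.00, SE 0.16, adjusted p = 0.997) and Saa3 (0.22, SE 0.58, adjusted p = 0.939) were not called. The macrophage markers differed in sum between these hairpins on the control diet, through Mrc1 alone of the 4 above the dim level. Their summed log2 level was 10.11 to 10.37 with shEGR2_40.9 and 10.62 to 10.74 with shEGR2_38.9, and on the PA-rich diet 9.77 to 9.81 and 9.85 to 9.88. Of 12 macrophage markers 4 lay above the dim level, and Adgre1, Itgam, Lyz2, Aif1, C1qa, C1qb, Cd163 and Ptprc lay below it. The mannose receptor Mrc1 was 8.74 ± 0.28 with shEGR2_40.9 and 9.76 ± 0.11 with shEGR2_38.9 on the control diet (SD, n = 3). The other 3 were near each other or in the other order there, with shEGR2_40.9 first: Cd68 was 7.84 and 7.75, Csf1r 6.87 and 6.94, and Fcgr1 6.77 and 6.83. On the PA-rich diet Cd68 was 7.95 and 7.25 and Mrc1 6.40 and 7.49. Without the array that stood apart the control-diet sum with shEGR2_38.9 was again 10.62 to 10.74. The part of these markers in the Acod1 difference was not tested.

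Endothelial markers moved with Saa3 and Ptx3. All 10 lay above the dim level, and under the control diet with EGR2 hairpins 9 of 10 rose against PLKO and 0 fell, with a median difference of 1.61 against -0.06 over all kept genes. Their summed log2 level was 13.02 to 13.29 with shEGR2_40.9 and 13.42 to 13.71 with shEGR2_38.9 on the control diet, and 11.55 to 12.46 in the other 6 groups. The PA-rich diet called 8 of 10 lower with shEGR2_40.9, 8 of 10 lower with shEGR2_38.9, and 0 with PLKO or shGAL. With PLKO the median diet difference of the 10 markers was -0.24, and the diet difference was -1.43 for Ptx3 (SE 0.45) and -0.77 for Saa3 (SE 0.58). Leaving out the array that stood apart gave 9 of 10 for the EGR2 hairpins against PLKO on the control diet. It gave 9 of 10 for the diet with each EGR2 hairpin too, and a control-diet sum with shEGR2_38.9 of 13.69 to 13.71. Against PLKO, shGAL had 1 of 10 higher on each diet. Between the EGR2 hairpins, 5 of 10 were lower with shEGR2_40.9 on the control diet, where Saa3 (-0.18) and Ptx3 (0.23) were not called. On the PA-rich diet 2 of 10 were lower. Of 6 kept pericyte or smooth muscle markers, 4 also rose and 0 fell with the EGR2 hairpins against PLKO on the control diet. Cdh5, the endothelial cadherin, was 10.07 ± 0.18 with PLKO, 11.38 ± 0.15 with shEGR2_40.9 and 12.07 ± 0.07 with shEGR2_38.9 on the control diet (SD, n = 3). Ptx3 is known to be made by endothelial cells, and the part of these cells in its values and in those of Saa3 was not tested. Serpina3n, the member called lower in the same contrast, moved the other way. In shGAL, where Lcn2 and Acod1 were highest on the PA-rich diet, the endothelial sum was 12.04 to 12.46.

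**Figure D4:**
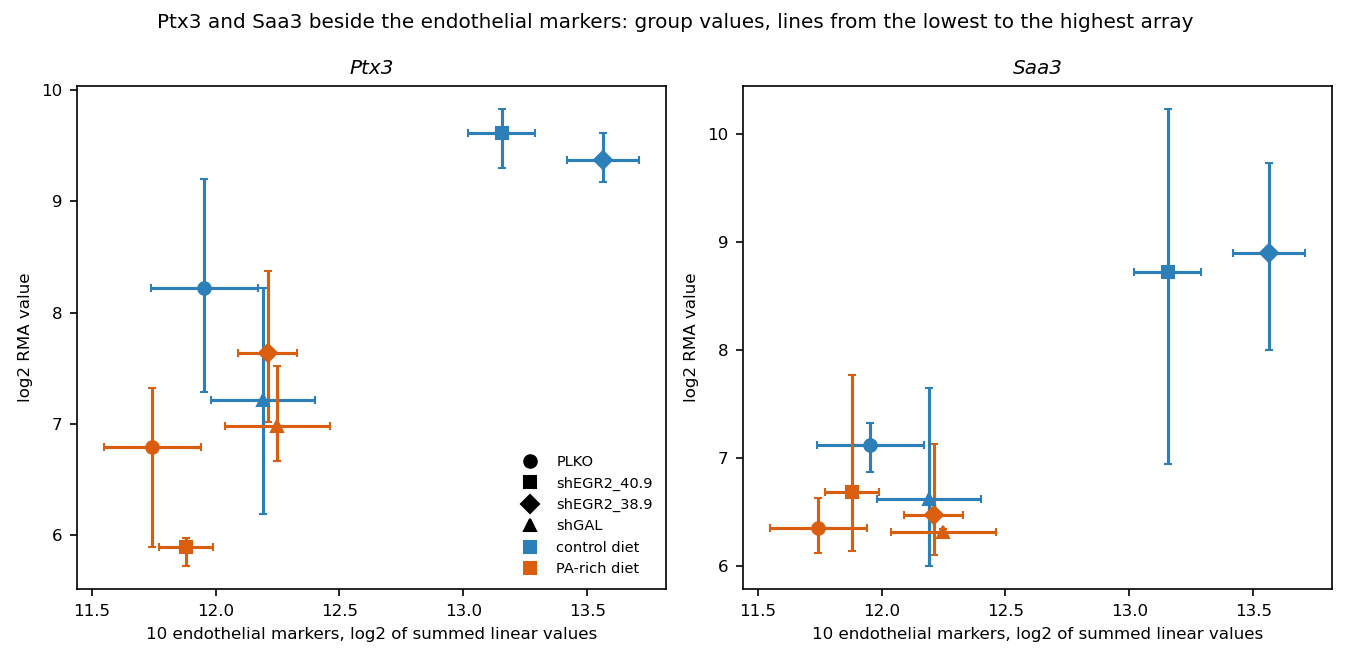
Log2 level of Ptx3 (left) and Saa3 (right) on the y axis against the log2 of the summed linear values of 10 endothelial markers on the x axis, for the 8 groups. Symbols stand at the group mean on the y axis and at the middle of the range on the x axis, and lines run from the lowest to the highest array. The EGR2 hairpins on the control diet stand apart on the x axis, from 13.02 to 13.71.

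Over the 24 arrays the members correlated unevenly. Pearson's r was 0.75 between Lcn2 and Serpina3n, 0.70 between Lcn2 and Acod1 and 0.63 between Serpina3n and Acod1. It was 0.73 between Saa3 and Ptx3, but 0.16 between Acod1 and Saa3 and 0.27 between Lcn2 and Saa3. After taking the group means away, r was 0.66 between Lcn2 and Acod1, 0.51 between Lcn2 and Serpina3n and 0.28 between Saa3 and Ptx3. These are descriptions, since arrays share groups and scan batches. The genes most like Lcn2 were Xbp1 (r = 0.82), a transcription factor of the unfolded protein response, Znfx1 (0.77), and the chemokine Ccl5 (0.76). Those most like Serpina3n were Ampd3 (0.79), Xbp1 (0.79) and the interferon-induced Ifit1 (0.71), and those most like Acod1 were Tnfaip2 (0.89), a gene induced by tumour necrosis factor, Marcksl1 (0.85) and Mical2 (0.84). Saa3 was most like Psen2 (0.87), Mapk12 (0.85) and Podxl (0.85). Ptx3 was most like Mmrn1, Calcrl and Flt4 (0.89 each), of which Flt4 encodes the lymphatic receptor VEGFR-3 and Mmrn1 an endothelial and platelet matrix protein.

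Xbp1 followed Lcn2 in small steps, with mean log2 levels of 9.70 and 9.16 with PLKO on the control and PA-rich diets and 9.50 and 9.59 with shGAL. Tnfaip2 was 8.67 and 8.43 with PLKO, 9.07 and 9.45 with shGAL, and 8.78 and 9.19 with shEGR2_40.9 and shEGR2_38.9 on the control diet. Flt4 was 9.26 and 8.69 with PLKO, 10.56 and 8.38 with shEGR2_40.9, and 11.20 and 9.56 with shEGR2_38.9.

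The upstream cytokines and factors of these genes formed a list of 36, of which 32 were kept. With PLKO the PA-rich diet called 1 higher and 0 lower, the interleukin-1 receptor antagonist Il1rn (0.38, SE 0.09). Over all kept genes this contrast called 0.371% higher and 0.811% lower. With shEGR2_40.9 it called 0 higher and 5 lower, among them the lipopolysaccharide co-receptor Cd14 (-0.88, SE 0.11), Tnfrsf1b (-0.67, SE 0.16) and the C/EBP factor Cebpd (-0.50, SE 0.10), against 3.73% higher and 5.22% lower over all kept genes. With shEGR2_38.9 it called 9 higher and 3 lower, the latter Cd14 (-0.73, SE 0.11), the leukaemia inhibitory factor receptor Lifr (-0.58, SE 0.14) and Cebpd (-0.53, SE 0.10), against 13.8% and 8.3%. The largest rises among the 9 were those of Tnf (0.51, SE 0.10) and Bcl3 (0.47, SE 0.09). With shGAL it called 1 higher, the interleukin-1 receptor Il1r1 (0.53, SE 0.11), and 0 lower, against 1.33% and 0.608%. After renewed quantile normalization 56.3% of the calls with shGAL were higher, against 68.7%.

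Against PLKO, shGAL called 7 of the 32 higher and 2 lower on the control diet, where 7.15% of kept genes were higher and 9.84% lower. Tnfrsf1b, a receptor of tumour necrosis factor, was higher by 1.06 (SE 0.16), Il1rn by 0.98 (SE 0.09) and the factor Cebpa by 0.48 (SE 0.06). On the PA-rich diet shGAL called 8 higher and 1 lower, where 7.6% of kept genes were higher and 4.77% lower. Socs3, the feedback inhibitor that STAT3 induces, was the one that fell (-0.95, SE 0.17), while Tnfrsf1b (0.74, SE 0.16), Il1rn (0.63, SE 0.09) and Il1a, an interleukin-1 itself (0.60, SE 0.11), rose. The EGR2 hairpins on the control diet called 7 higher and 7 lower, with Tnfrsf1b (0.68, SE 0.14), Lifr (0.58, SE 0.12) and Cd14 (0.53, SE 0.09) higher and Il1a (-0.47, SE 0.10) lower. On the PA-rich diet they called 0 higher and 2 lower, Irf1 (-0.33, SE 0.08), which scan batch as a block did not call (adjusted p = 0.11), and Tlr2 (-0.33, SE 0.06). Both were lower with shEGR2_40.9 than with shEGR2_38.9 there, Irf1 by -0.38 (SE 0.09, not called with the block) and Tlr2 by -0.33 (SE 0.07). Tlr2 was 10.94 with PLKO, 10.44 with shEGR2_40.9 and 10.78 with shEGR2_38.9. Scan batch as a block left 6 higher and 5 lower for the EGR2 hairpins on the control diet, without Il17ra, Nfkbiz and Irf1, and 6 higher and 1 lower for shGAL on the PA-rich diet, without Tnf and Osmr. For the diet with shGAL it called 2 higher and 1 lower. Leaving out the array that stood apart gave 5 higher and 5 lower for the diet with shEGR2_38.9, where Tnfrsf1a, Lif, Rela, Nfkbiz and Tlr2 lost their calls, and 10 higher and 7 lower for the EGR2 hairpins on the control diet. It then gave 3 higher and 1 lower for the diet with shGAL, 10 and 4 for shGAL against PLKO on the control diet, and 1 and 4 for the EGR2 hairpins on the PA-rich diet. The list's median differences lay between -0.12 and 0.12 in the 10 contrasts, against -0.06 to 0.07 over all kept genes.

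Of 33 further acute phase proteins and serpins 25 had a probe set and only 8 were kept. The PA-rich diet called 0 of these with PLKO and 0 with shGAL. It called 4 lower and 0 higher with each EGR2 hairpin: with shEGR2_40.9 the antitrypsin gene Serpina1b (-0.77, SE 0.22), ceruloplasmin Cp (-0.63, SE 0.17), Serpinf1 (-0.41, SE 0.11) and the lipopolysaccharide-binding protein Lbp (-0.39, SE 0.12). With shEGR2_38.9 they were Cp (-0.97, SE 0.17), Serpina1b (-0.81, SE 0.22), Lbp (-0.58, SE 0.12) and Serpina3i (-0.45, SE 0.11). On the control diet the EGR2 hairpins called 4 higher than PLKO and 0 lower: Serpina1b (1.29, SE 0.19), Cp (0.54, SE 0.15), Serpina3i (0.52, SE 0.10) and Lbp (0.31, SE 0.10). Serpina3i therefore rose where its chromosome 12 relative Serpina3n fell. The list's median was 0.27 in that contrast, against -0.06 over all kept genes. With the odd array (control replicate 3 of shEGR2_38.9) left out, 5 were lower for the diet with shEGR2_38.9 and 5 higher in the EGR2 contrast on the control diet, with Serpinf1 added to both. These EGR2 contrasts share the EGR2 control-diet arrays with the diet contrasts.

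Of 26 complement genes other than C3, 20 had a probe set and 11 were kept. In the EGR2 contrast on the control diet 4 rose and 1 fell: factor B (Cfb, 0.65, SE 0.12), the C1 inhibitor Serping1 (0.58, SE 0.11), the decay accelerator Cd55 (0.46, SE 0.13) and C2 (0.41, SE 0.09) were higher, and the protease C1s1 was lower (-0.43, SE 0.12). The hairpins were unlike in C1s1, with means of 10.58 with PLKO, 9.69 with shEGR2_40.9 and 10.62 with shEGR2_38.9. It was lower with shEGR2_40.9 than with shEGR2_38.9 by -0.92 (SE 0.14), or -0.71 without the array that stood apart. The PA-rich diet called 3 lower with shEGR2_40.9, Cd55 (-0.59, SE 0.15), Cfb (-0.59, SE 0.13) and Serping1 (-0.47, SE 0.13), and 1 higher, C1s1 (0.79, SE 0.14). With shEGR2_38.9 it called 2 lower, Serping1 (-0.87, SE 0.13) and Cfb (-0.58, SE 0.13), and with PLKO or shGAL it called 0. The diet with shEGR2_38.9 called 3 lower and 1 higher once the array that stood apart was left out, with Cd55 and C1s1 added, while the EGR2 contrast kept its 4 and 1.

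Of the 22 genes around itaconate, namely citric acid cycle enzymes, carriers and known targets, 18 had a probe set and all 18 were kept. The PA-rich diet called Nfe2l2 lower with PLKO (-0.36, SE 0.09), the gene of NRF2, which itaconate is known to activate, and no other in the list. With shEGR2_38.9 it called 5 higher, led by the succinyl-CoA ligase subunit Suclg2 (0.66, SE 0.11) and the isocitrate dehydrogenase subunit Idh3a (0.35, SE 0.10). With shEGR2_40.9 it called the citrate carrier Slc25a1 (0.39, SE 0.08), and with shGAL Suclg2 (0.45, SE 0.11). Against PLKO on the control diet, shGAL called 0 higher and 7 lower: Suclg2 (-0.83, SE 0.11), Nfe2l2 (-0.51, SE 0.09), aconitase 1 (Aco1, -0.47, SE 0.12) and Suclg1 (-0.39, SE 0.09) were the largest, and the succinate dehydrogenase genes Sdha, Sdhb and Sdhc were also among them. The EGR2 hairpins called 0 higher and 7 lower there as well, with Suclg2 at -0.81 (SE 0.09), Aco1 at -0.61 (SE 0.10), Suclg1 at -0.38 (SE 0.07) and Idh3a at -0.29 (SE 0.08). Both contrasts use the same PLKO arrays. With scan batch as a block the EGR2 count was 6, without Nfkbiz (adjusted p = 0.139) and Slc25a1 (adjusted p = 0.0539) and with Clybl. It was 8 without the array that stood apart, and the diet with shEGR2_38.9 called 6 higher. On the PA-rich diet shGAL called 1 lower, Sdha (-0.22, SE 0.07, adjusted p = 0.0354), which scan batch as a block did not call (adjusted p = 0.125), while 2 were lower without the array that stood apart. Acod1 itself, the enzyme that makes itaconate, was not called in the EGR2 contrast.

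Of 16 genes of lipocalin 2 receptors and iron handling 10 were kept, and few were called. In the EGR2 contrast on the control diet Cp, the iron exporter Slc40a1 (0.41, SE 0.08) and the ferroxidase Heph (0.25, SE 0.08) were higher than with PLKO, the last not with scan batch as a block (adjusted p = 0.0712). The PA-rich diet called Cp and Slc40a1 lower with shEGR2_40.9 (Slc40a1 -0.34, SE 0.09) and with shEGR2_38.9 (Slc40a1 -0.48, SE 0.09). Mmp9, a matrix protease whose human form lipocalin 2 binds, was higher with shGAL than with PLKO on the PA-rich diet by 1.5 (SE 0.42, adjusted p = 0.0198), but not with scan batch as a block (adjusted p = 0.0938). Its level there was 8.92 ± 1.42 (SD, n = 3). Here the diet with shEGR2_38.9 called 3 lower and 1 higher without the array that stood apart, and the EGR2 contrast on the control diet 4 higher.

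Of 33 genes of reactive glia other than the members 29 were kept. The PA-rich diet called 0 higher and 1 lower with PLKO and 0 with shGAL, where Lcn2 and Serpina3n had their widest and their opposite values. The 1 with PLKO was Cxcl10 (-0.50, SE 0.11). The diet called 10 lower and 0 higher with shEGR2_40.9, led by vimentin (Vim, -1.17, SE 0.18), Fbln5 (-1.08, SE 0.12), Srgn (-0.90, SE 0.20) and Cd14. With shEGR2_38.9 it called 12 lower and 3 higher, led by Iigp1 (-1.73, SE 0.24), Fbln5 (-1.24, SE 0.12), Sphk1 (-1.23, SE 0.11) and Vim (-1.16, SE 0.18). The EGR2 hairpins on the control diet called 15 higher than PLKO and 1 lower, with Iigp1 (1.44, SE 0.21), Fbln5 (1.12, SE 0.10), Sphk1 (1.10, SE 0.09) and Vim (1.06, SE 0.16) the largest, and a median of 0.21 against -0.06 over all kept genes. Several of these, Vim among them, are expressed in endothelial cells and fibroblasts too. Besides the 9 of 10 endothelial markers, 3 of the 5 kept fibroblast markers were called higher there and 1 lower (1 and 1 with scan batch as a block), and their part in these counts was not tested. Against PLKO on the PA-rich diet shGAL called 5 higher and 0 lower, among them the oncostatin M receptor Osmr (0.43, SE 0.14), Slc10a6 (0.43, SE 0.11), Aspg (0.41, SE 0.09) and the interferon-induced chemokine Cxcl10 (0.37, SE 0.11). With scan batch as a block, Osmr (adjusted p = 0.0922) and Cxcl10 (adjusted p = 0.181) were not called. Without the array that stood apart, the list gave 2 higher and 13 lower for the diet with shEGR2_38.9, 15 higher and 2 lower for the EGR2 hairpins on the control diet, and 8 higher and 1 lower for shGAL on the PA-rich diet, and the fibroblast counts stayed at 3 and 1. All list genes given with a difference for the diet with shEGR2_38.9 remained past the threshold without that array. So did those given with a difference for the EGR2 hairpins on the control diet. For the diet with shEGR2_38.9, Tnfrsf1a, Lif, Rela, Nfkbiz and Tlr2 lost their calls, as given above. All these lists were chosen with earlier results of the arrays known, and their counts and medians describe the lists without testing them against other genes. Cp, Cd14 and Serping1 each stand in more than 1 list.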

How the data were processed

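Amplified total RNA of the neural fraction cells was read on biotin-labelled Affymetrix mouse arrays, per the labels' protocols. Per the submitters' processing notes the authors used RMA and affy (versions not given in the sources used here) to make the deposited log2 values. Of 45141 probe sets, the 28898 with a single gene symbol in the supplied annotation were used (551 had several symbols and 15692 had none); the gene table matched 99.28% of them by Entrez identifier. Of several probe sets of a gene, that with the highest mean over all arrays was used. Genes under 6.27, the 40th percentile of the probe sets' means, were dim and left out, which kept 11844 of 17097. Binding of human RNA to the mouse probe sets was not tested.

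One linear model of the 8 group means over 24 arrays was fitted with limma 3.58.1 in R 4.3.3 (two-sided moderated tests, Benjamini-Hochberg over 11844 genes, threshold 0.05). The residual degrees of freedom were 16 (11 with the block) and the prior ones 6.21. The fit was tested on simulated data. The members and all gene lists were chosen with earlier results of these data known. The named genes were the members, the 3 kept genes with the highest Pearson correlation to each, and, per list and contrast, at most the 4 largest changes past the threshold; Sdhb, Sdhc and Cxcl10 as well as other names beyond that number were chosen after their values were seen.

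Within a hairpin, the labels give the same replicate number on both diets the same scan batch, so the numbers pair the diets. Of the 12 same-number correlations between diets of deviations from the group means, 7 exceeded 0.1, and they ran from -0.03 to 0.24. Alternatives tried were a fit without the dim filter, the mean over a gene's probe sets, a renewed quantile normalization, a fit of the compared arrays alone, scan batch as the replicate block, and each array left out in turn. List and marker counts with the block or without shEGR2_38.9 control-diet replicate 3, and bounds against the dim level, were added after seeing the data. No pair of arrays held identical values.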

Additional observations from a re-analysis of the deposited data

Results flagged for a closer look

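For Lcn2, Serpina3n and Acod1 the PA-rich array of every replicate pair was the lower with PLKO and both EGR2 hairpins and the higher with shGAL. The diet difference in log2 level with shGAL minus that with PLKO was 1.84 for Lcn2, 1.2 for Serpina3n and 1.98 for Acod1. Minus that with shEGR2_40.9 it was 1.24, 0.64 and 1.22, and minus that with shEGR2_38.9 it was 1.22, 0.29 and 1.81, in the same order of genes. These differences were not tested, because the diet and shGAL contrasts chose the genes.

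The EGR2 hairpins, tested against each other with limma, differed in Acod1 on the control diet (-1.97, shEGR2_40.9 minus shEGR2_38.9) and on the PA-rich diet (-1.38), and on the PA-rich diet also in Serpina3n (-0.47) and Ptx3 (-1.75). The shEGR2_40.9 arrays of Ptx3 all lay below the dim level, and against that level its difference was at least 2.58-fold. It missed the threshold with scan batch as a block, at -1.12.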

How the results depend on the processing

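Of the 615 alternative values of the members' differences, 587 were counted as unchanged. Tested values among these kept their side of the threshold, and untested ones moved by less than 1 SD. Another 20 lost the call, 4 gained it and 4 moved further, and no called value changed sign. Some uncalled values did change sign. The Saa3 difference between the EGR2 hairpins on the control diet went from -0.18 to 0.71 without shEGR2_40.9 control-diet replicate 2. Of the 175 alternative counts, 123 stayed within 1.5 times the count reported. With only the arrays compared, the genes called numbered 70 for the diet with PLKO (140 over all arrays), 1295 with shEGR2_38.9 (2623), 47 with shGAL (230), 1202 for shGAL minus PLKO on the control diet (2013), 1550 for the EGR2 mean minus PLKO on the control diet (2987) and 595 under the PA-rich diet (132). For shEGR2_40.9 minus shEGR2_38.9 they were 299 on the control diet (1408) and 1523 under the PA-rich diet (593). With the mean of all probe sets they were 384 for the diet with shGAL and 205 for the EGR2 mean on the PA-rich diet. With scan batch as the replicate block they were 71 for the EGR2 mean on the PA-rich diet and 363 for shEGR2_40.9 minus shEGR2_38.9 on that diet. Members called for the EGR2 mean on the PA-rich diet were 1 as reported, 0 with no filter on dim genes and 3 with only the arrays compared; the block kept the number at 1 but called Lcn2 in place of Serpina3n. Beside Lcn2, Serpina3n and Ptx3 as given, the block changed no other call of a member. Leaving out 1 array gave 56 to 269 genes for the diet with PLKO, 689 to 1534 with shEGR2_40.9, 1916 to 3225 with shEGR2_38.9 and 59 to 528 with shGAL. It gave 1432 to 2801 and 968 to 2097 for shGAL minus PLKO on the control and PA-rich diets, and 2053 to 3327 and 59 to 257 for the EGR2 mean. For shEGR2_40.9 minus shEGR2_38.9 it gave 822 to 1810 and 302 to 928. Members called were then 1 to 3 and 0 to 2 for the EGR2 mean on the control and PA-rich diets, and 1 to 1 and 2 to 3 between the EGR2 hairpins. The cause of these shifts was not tested.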
